A study of Monascus purpureus with 6 samples.

Results

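Of the 24261 unigenes (assembled transcripts) of *Monascus purpureus* MP2022, 4 are described here, the most abundant unigene of each of 4 enzymes of sugar breakdown. They are TRINITY_DN1421_c0_g1_i1-S1A of fructose-bisphosphate aldolase (*FBA*, 1606 bases), TRINITY_DN308_c0_g1_i1-C3A of glyceraldehyde 3-phosphate dehydrogenase (*GAP*, 1468 bases), TRINITY_DN520_c0_g1_i4-S2A of enolase (*ENO*, 1700 bases) and TRINITY_DN1841_c0_g1_i1-C3A of alcohol dehydrogenase (*ADH*, 1759 bases). The enzyme names come from the deposited annotation, and the unigenes were chosen by their mean FPKM over the 6 libraries. FPKM, the number of fragments scaled to a kilobase of transcript and to 1000000 fragments in all, was listed for 20581 unigenes, all 4 among them. Levels are therefore given as a description, whereas the difference between the groups was not part of the rule.

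The taurine group was wild-type mycelium grown for 1 d with 4.0 g/L taurine, a sulfur-containing amino acid, and the control was the same strain grown without it. Both groups were shaken in fermentation medium (25 °C, 150 rpm), and each gave 3 libraries of total RNA for de novo RNA-Seq, in which transcripts are assembled from the reads without a genome. Before the stage at 25 °C the study's methods describe a warmer pre-culture, and they do not state in which the 1 d fell. All 6 libraries came from 1 isolate and 1 day. Nothing in the labels states whether replicates were separate cultures, so p-values measure the spread between these libraries, which may be technical. Which library belongs to which group rests on the library names in the table, and were these exchanged, every direction below would turn round.

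Glycolysis splits glucose into pyruvate and yields ATP and NADH, and in fermentation pyruvate is decarboxylated to acetaldehyde, which alcohol dehydrogenase reduces to ethanol while NADH is oxidised again. Aldolase cleaves fructose bisphosphate into triose phosphates, glyceraldehyde 3-phosphate dehydrogenase carries out the oxidation step, and enolase makes phosphoenolpyruvate. *Monascus* fungi are known for azaphilone pigments and for their use in fermented foods, and the comparison asks whether the transcripts of this route differed with taurine.

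The libraries were of similar size. FPKM summed to 831359 to 865009 in taurine libraries and 797244 to 863693 in control libraries, and 17168 to 17497 unigenes were above 0. The fragments behind each library were roughly estimated at 19400000 to 20500000 from the steps between low FPKM values. The estimate is coarse, since 45.6% to 51.6% of low values came within 0.1 of a whole fragment, against 20% for evenly spread values. Library size and fragment length were chosen to make this percentage as high as possible, so 20% is too low a base for it. By the estimate, 23534 to 508506 fragments stood behind each value of the 4 unigenes. That is a counting error of 0.14% to 0.652%, so depth did not limit these values. The most abundant actin unigene, TRINITY_DN1742_c0_g1_i1-S3A, had an FPKM of 1242, 1202 and 1269 in taurine libraries and 1217, 1121 and 1232 in control libraries, and it stayed level where the 4 unigenes did not.

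None of the 4 unigenes differed between taurine and control beyond the spread of the libraries. All 4 had a lower mean with taurine, but for each of them control replicate 2 was the highest library of all 6, control replicate 1 was the lowest, and the 3 taurine libraries lay between. Of all tested unigenes 9.42% had these 2 control libraries as highest and lowest. Without control replicate 2 the direction of all 4 turned round. The taurine libraries held the 4 transcripts within a narrow band, with a CV (SD over mean) of 8.58% to 11.3%, against 46.9% to 99.4% in the control. This is common at their abundance. Of the 148 unigenes whose mean FPKM reached 1000, 93.2% had a lower CV with taurine, against 59.6% of all tested. The taurine libraries lay inside the control range for 70.9% of those 148 and 27.1% of all tested.

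Aldolase, the earliest of the 4 steps, had an FPKM of 2055, 2372 and 2047 in taurine replicates 1, 2 and 3, against 1719.5, 4329.7 and 2516 in control replicates 1, 2 and 3. The groups overlapped, and control replicate 2 stood 1.72 times above the next highest library. The mean was 2158 ± 185 with taurine and 2855 ± 1338 in the control (SD, n = 3 each). The log2 fold change, on the scale of log2(FPKM + 1) as throughout, was -0.30 (SE 0.33, 95% interval -1.11 to 0.50) with an adjusted p = 0.999 from limma with Benjamini-Hochberg adjustment. An exact permutation test of the FPKM, two-sided, gave p = 0.6, where 3 against 3 libraries cannot go below 0.1.

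Glyceraldehyde 3-phosphate dehydrogenase was the most abundant of the 4 in every library. Its FPKM was 8959, 10647 and 9184 in taurine replicates 1, 2 and 3, against 7358, 22435 and 10613 in control replicates 1, 2 and 3. Among all unigenes it ranked 4, 4 and 4 in the taurine libraries and 5, 1 and 3 in the control, so that in control replicate 2 it was the most abundant transcript. The mean was 9597 ± 916 with taurine and 13468 ± 7934 in the control (SD, n = 3 each). On the log2 scale the change was -0.33 (SE 0.43, 95% interval -1.38 to 0.71; adjusted p = 0.999, limma with Benjamini-Hochberg; exact permutation p = 0.8).

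Enolase had an FPKM of 1852, 2178 and 1765 in taurine replicates 1, 2 and 3, against 1203, 4189.7 and 2190.0 in control replicates 1, 2 and 3. Taurine replicate 2 and control replicate 3 were nearly the same. The mean was 1932 ± 218 with taurine and 2528 ± 1522 in the control (SD, n = 3 each), a log2 fold change of -0.21 (SE 0.43, 95% interval -1.26 to 0.84). It did not pass the test (adjusted p = 0.999, limma with Benjamini-Hochberg; exact permutation p = 0.7).

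Alcohol dehydrogenase, the last step to ethanol, was the most variable of the 4 in the control, though not with taurine, where its CV was 9.43% and that of *ENO* 11.3%. It had an FPKM of 1358, 1634 and 1455 in taurine replicates 1, 2 and 3, against 815, 6108 and 1657 in control replicates 1, 2 and 3. Control replicate 2 was 7.49 times control replicate 1 and 3.69 times the next highest library, while the highest taurine library was 1.203 times the lowest. The mean was 1482 ± 140 with taurine and 2860.2 ± 2844 in the control (SD, n = 3 each). The log2 fold change was -0.45 with the widest interval of the 4 (SE 0.69, 95% interval -2.11 to 1.21; adjusted p = 0.999, limma with Benjamini-Hochberg; exact permutation p = 0.7). The deposited annotation calls it a propanol-preferring alcohol dehydrogenase, so that its substrate in these cells is known only by likeness.

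**Figure D1:**
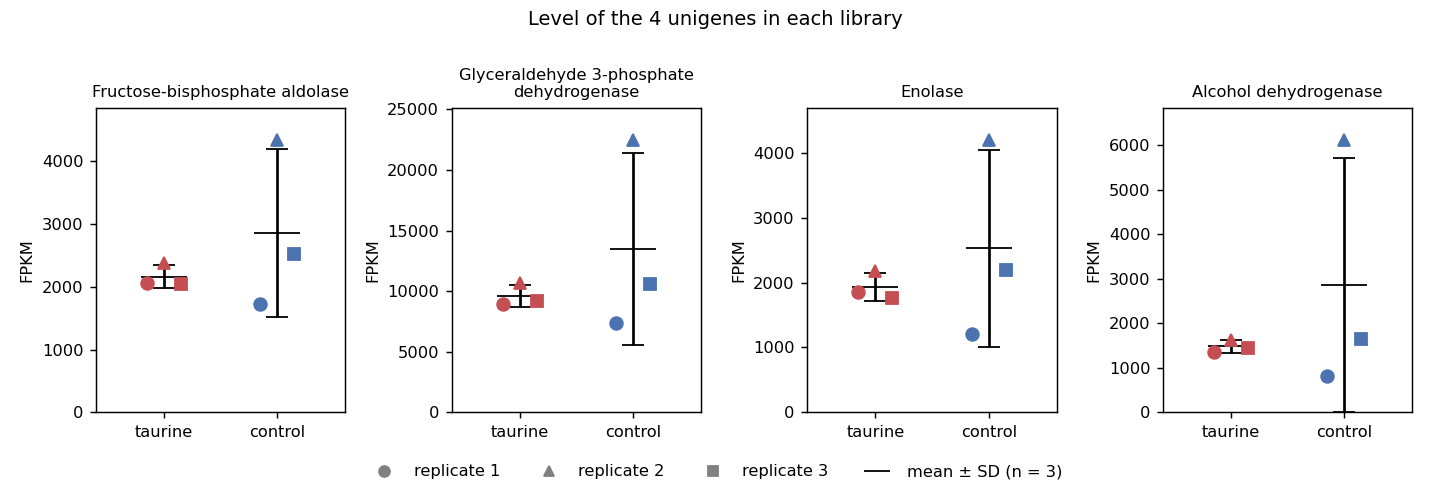
FPKM (linear axis from 0) of the 4 unigenes in each library, with taurine left and control right in each panel, points for libraries and bars for mean ± SD (n = 3 each). Control replicate 2 is the highest point and control replicate 1 the lowest in every panel, as for *ADH* at 6108 and 815, and the taurine points lie between.

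With limma 0 of the 4 unigenes passed an adjusted p of 0.05 and 0 had an unadjusted p under 0.05 (the lowest was 0.396, for *FBA*). Among all 20380 tested unigenes 8 were called, 0.0393%, of which 5 were higher (0.0245%) and 3 lower (0.0147%) with taurine, and 2.66% had an unadjusted p under 0.05. A lower mean with taurine in 4 of 4 unigenes stood beside 45.8% of all tested unigenes. The intervals reach from a fall by 2.11 to a rise of 1.21 on the log2 scale for *ADH*, and so do not show that the groups were alike.

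Each of these directions rested on control replicate 2. Without it the log2 fold change was 0.05 for *FBA*, 0.11 for *GAP*, 0.25 for *ENO* and 0.35 for *ADH*, with adjusted p-values of 0.919 to 0.976 from limma. The control mean then came to 2118 for *FBA*, 8985 for *GAP*, 1696 for *ENO* and 1236 for *ADH*, each below the taurine mean. Without control replicate 1 the falls were larger, at -0.62 for *FBA*, -0.69 for *GAP*, -0.65 for *ENO* and -1.11 for *ADH*, and none passed the test either (adjusted p = 0.819 from limma for each).

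**Figure D2:**
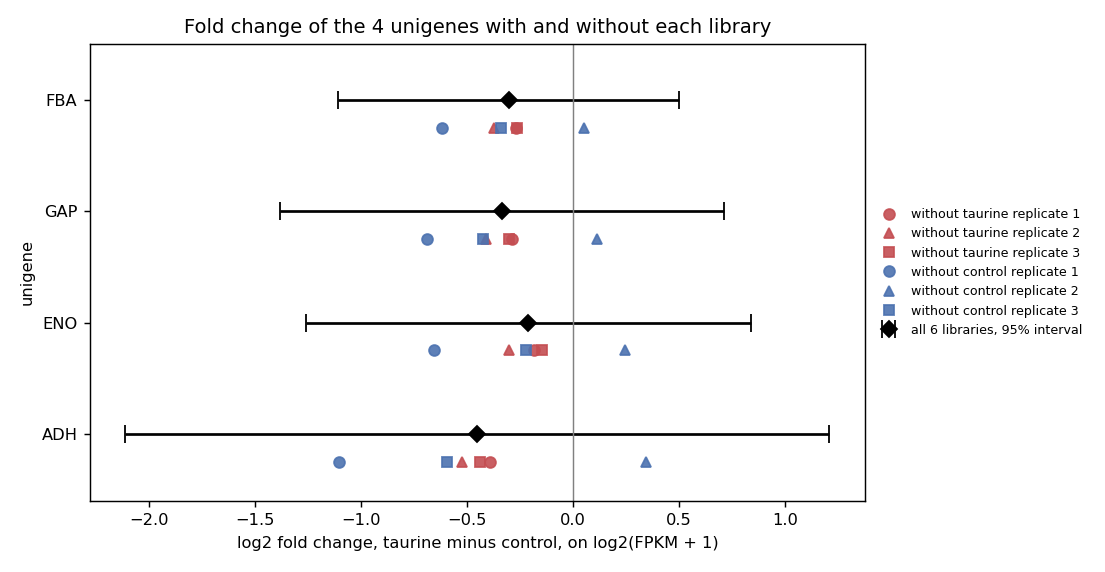
Log2 fold change (taurine minus control, on log2(FPKM + 1)) of the 4 unigenes; diamonds and bars are the value and 95% interval with all 6 libraries, and the points below them are the values with 1 library left out. Only the points without control replicate 2 lie right of 0, at 0.05 to 0.35.

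The order of the 4 levels, which FPKM allows since it is per length, was *GAP*, *FBA*, *ENO* and *ADH* in all 3 taurine libraries and in control replicates 1 and 3. In control replicate 2 *ADH* moved up to the second place, and it was 1.46 times *ENO* there. In taurine libraries that ratio was 0.733, 0.750 and 0.824, and in control replicates 1 and 3 it was 0.678 and 0.757. *FBA* was above *ENO* in every library, although their means lay within 1 SD of each other in the control.

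*ENO* and *FBA* kept a nearer proportion to *GAP* than *ADH* did. The ratio of *FBA* to *GAP* was 0.229, 0.223 and 0.223 in taurine libraries and 0.234, 0.193 and 0.237 in control libraries. For *ENO* to *GAP* it was 0.207, 0.205 and 0.192 in taurine libraries and 0.163, 0.187 and 0.206 in control libraries. That of *ADH* to *GAP* was 0.152, 0.153 and 0.158 in taurine libraries and 0.111, 0.272 and 0.156 in control libraries. The taurine libraries were thus alike in all 3 ratios, and the wide values of *ADH* came from control replicates 1 and 2. Together the 4 unigenes took 1.69%, 1.95% and 1.74% of all FPKM in taurine libraries, against 1.28%, 4.65% and 1.99% in control libraries.

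The same order of libraries was seen in the most abundant unigene of each step, but not in most weaker ones. For each of 12 enzymes from hexokinase to alcohol dehydrogenase the most abundant unigene with the matching KEGG ortholog was taken, a list made after values had been seen. In 12 of 12 control replicate 2 was highest, control replicate 1 lowest and the taurine libraries between. Of all 98 tested unigenes with these orthologs 38 (38.8%) had control replicate 2 highest and control replicate 1 lowest, with 6 of 20 for hexokinase and 3 of 30 for alcohol dehydrogenase among them, and of the 111 tested unigenes in the study's own list 43 (38.7%) did. Over all tested unigenes 9.42% had control replicate 2 highest and control replicate 1 lowest, and 27.1% had the taurine libraries inside the control range. Among the 148 unigenes whose mean FPKM reached 1000 the shares were 14.9% and 70.9%. The 4 unigenes and 3 others of the 12 reach that level, and 5 of the 12 do not. Of the 3 others, phosphoglycerate kinase reaches it only through control replicate 2, with a mean of 1007 over 6 libraries and 736 over the other 5. The mean that sets this level includes control replicate 2, so the shares among the 148 depend in part on that library.

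The highest ratios of control replicate 2 to the median of the other 5 libraries were at *ADH* (4.197), phosphofructokinase (*PFK*, 3.98), pyruvate decarboxylase (*PDC*, 3.44) and phosphoglycerate kinase (*PGK*, 3.08). Phosphofructokinase, which commits sugar to glycolysis, had an FPKM of 58.2, 68.5 and 70.7 in taurine libraries, against 48.0, 273 and 79.2 in control libraries. Pyruvate decarboxylase, which makes acetaldehyde, had 1223, 1219 and 1456 in taurine libraries, against 745, 4203 and 1471 in control libraries. The *PFK* unigene was the most abundant of its enzyme through control replicate 2 itself, so its ratio is partly a product of the choice. By the mean of the other 5 libraries TRINITY_DN112_c0_g1_i1-C1A would be taken, with a ratio of 2.49. The choice was the same for the other 11 enzymes, and control replicate 2 stayed highest and control replicate 1 lowest in 12 of 12. *GAP* (2.44), *ENO* (2.26) and *FBA* (2.11) lay in the middle, near phosphoglycerate mutase (*PGM*, 2.66) and pyruvate kinase (*PYK*, 2.36). The lowest ratios were at triosephosphate isomerase (*TPI*, 1.62), hexokinase (*GLK*, 1.59) and glucose-6-phosphate isomerase (*PGI*, 1.52).

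In the taurine libraries these 12 unigenes had CVs of 3.31% to 15.2%, against 30.8% to 99.4% in the control. A lower CV with taurine was found for 59.6% of all tested unigenes and for 93.2% of the 148 whose mean FPKM reached 1000, a level that all 4 unigenes but not 5 of the 12 reach. Their log2 fold changes were -0.62 to -0.11 with a median of -0.32, and 0 of 12 passed the test in limma or had an unadjusted p under 0.05 (the lowest was 0.278, for *PYK*). Fits without a library were applied to these 12 after the values were seen. Without control replicate 2, 1 of 12 had a lower mean with taurine and the median was 0.12, beside 0.03 over all tested unigenes. Without control replicate 1 all 12 were lower, with a median of -0.71 beside 0.02 over all tested unigenes. In that setting 0 were called by limma (2 at an unadjusted p under 0.05).

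**Figure D3:**
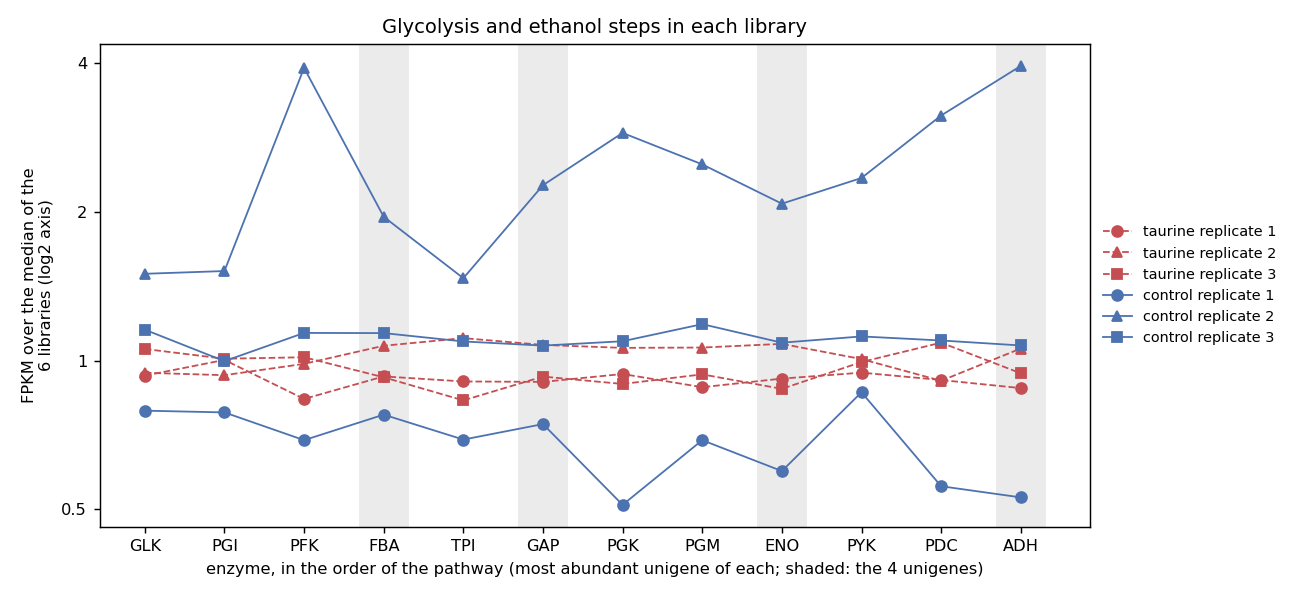
FPKM of the most abundant unigene of 12 enzymes in each library over the median of the 6 libraries (log2 axis), in the order of the pathway, with the 4 unigenes shaded. Control replicate 2 runs above and control replicate 1 below the other libraries at all 12 steps, while control replicate 3 lies above all 3 taurine libraries at 9 steps and within their range at 3.

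Abundant transcripts in general were not higher in control replicate 2. Among the same 148 unigenes the median log2 ratio of this library to the median of the other 5 was -0.40, and it was below 0 for 117 of them (79.1%). For the 4 unigenes it was 1.07 (*FBA*), 1.29 (*GAP*), 1.18 (*ENO*) and 2.07 (*ADH*). At least 1.5 times the next highest library was reached in control replicate 2 by all 4, beside 9.46% of unigenes of that abundance and 11.3% of all tested ones. Of the 5904 unigenes whose mean FPKM reached 10, *ADH* held place 54 by this ratio, *GAP* 136, *ENO* 169 and *FBA* 199. What set control replicate 2 apart was not tested, and with 1 such library a culture and a library difference cannot be told apart.

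**Figure D4:**
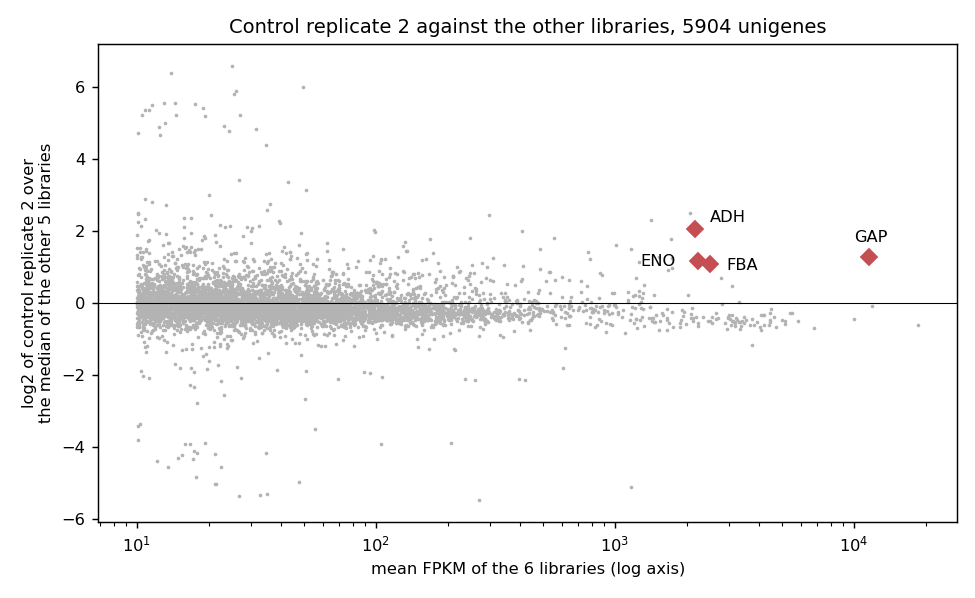
Log2 ratio of control replicate 2 to the median of the other 5 libraries, on FPKM + 1, against mean FPKM (log axis) for 5904 unigenes, with the 4 unigenes as diamonds. At mean FPKM above 1000 most points lie below 0, and the 4 unigenes lie at 1.07 to 2.07.

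The study lists 112 unigenes under the 12 gene names of this route, 111 of them with FPKM. By KEGG annotation this list is wider than the route. Those with FPKM under *PGI* and *PGM* are all annotated as other enzymes, such as 6-phosphogluconolactonase and phosphoglucomutase. The list was drawn from these same libraries and is not independent evidence of a direction. In limma 0 of the 111 were called and 0 had an unadjusted p under 0.05. With taurine 67 had a lower and 44 a higher mean, for a median of -0.09, beside 0.02 over all tested unigenes. Without control replicate 2 the median of the list was 0.10. Control replicate 2 was the highest library for 62 of them (55.9%), against 28.3% of all tested unigenes, and 8 (7.21%) had groups that did not overlap, against 6.41%. Without the 4 unigenes described here the median was -0.07.

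The separate list by KEGG ortholog held 98 tested unigenes, of which 60 had a lower and 38 a higher mean with taurine (median -0.11). Over all tested unigenes 45.8% had a lower mean. All 5 unigenes of enolase, all 4 of phosphofructokinase, all 4 of phosphoglycerate mutase and both of aldolase and of phosphoglycerate kinase were lower, as were 2 of 3 of triosephosphate isomerase, 2 of 4 of *GAP*, 10 of 20 of hexokinase and 1 of 2 of glucose-6-phosphate isomerase. For pyruvate kinase 4 of 5 were higher, although the most abundant one was lower. For the chosen alcohol dehydrogenase orthologs 14 of 30 were higher and for pyruvate decarboxylase 6 of 17. None of these unigenes was called, and the difference between enzymes was not tested, so these counts describe means only.

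The 4 unigenes differed in how far they stood above the next unigene of their enzyme. Aldolase had a single other unigene by KEGG ortholog, TRINITY_DN6152_c0_g1_i1-C2A, with an FPKM of 13.2, 15.2 and 12.3 in taurine libraries, against 9.10, 20.6 and 13.7 in control libraries. The next for enolase was TRINITY_DN439_c0_g1_i2-C2A, with 371, 369 and 352 in taurine libraries, against 242, 756 and 395 in control libraries. Both weaker unigenes had the order of libraries of the stronger one, with control replicate 2 highest and control replicate 1 lowest.

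For alcohol dehydrogenase the next unigene did not have this order. The next in the study's list, TRINITY_DN3439_c0_g1_i1-C2A, which the KEGG annotation places with the glutathione-dependent enzymes of formaldehyde removal, had an FPKM of 730.2, 733 and 687 in taurine libraries, against 671, 197 and 631 in control libraries. Here control replicate 2 was the lowest library and the groups did not overlap, as for 6.41% of all tested unigenes. The log2 fold change was 0.71 (SE 0.46, unadjusted p = 0.173 from limma, exact permutation p = 0.1, the smallest possible). Without control replicate 2 it was smaller but less spread, at 0.14 (SE 0.059, unadjusted p = 0.063 and adjusted p = 0.919 from limma). The taurine values lay above control replicates 1 and 3 as well. The 3 unigenes that came after it in abundance in that list again had control replicate 2 highest and control replicate 1 lowest, as TRINITY_DN3489_c0_g1_i1-C3A did, with 149, 139.7 and 127 in taurine libraries, against 76.0, 371 and 173 in control libraries. KEGG annotates the others of these 3 as a D-arabinitol dehydrogenase and a D-xylulose reductase. The orthologs chosen from KEGG for this enzyme left out both TRINITY_DN3439_c0_g1_i1-C2A and TRINITY_DN3489_c0_g1_i1-C3A. The next by the chosen orthologs, TRINITY_DN3548_c0_g1_i1-S3A, had 157, 181 and 142 in taurine libraries, against 157, 141 and 163 in control libraries, with no such spread.

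The share of *ADH* among the unigenes listed under its name moved with the library. By KEGG annotation that list is wider than the enzyme, and includes D-arabinitol dehydrogenase and D-xylulose reductase. Of the summed FPKM of the 36 listed *ADH* unigenes, *ADH* held 46.5%, 51.0% and 49.3% in taurine libraries. In control libraries it held 37.8%, 79.0% and 52.5% (exact permutation p = 0.7). The difference of the means was -7.45 percentage points, and 3.83 without control replicate 2. The orthologs chosen from KEGG left out TRINITY_DN3439_c0_g1_i1-C2A and TRINITY_DN3489_c0_g1_i1-C3A, which KEGG also names alcohol dehydrogenases, and the next share depends on that choice. Among the 32 unigenes with the chosen orthologs *ADH* held 84.0%, 85.6% and 85.7% in taurine libraries, against 76.1%, 96.0% and 86.3% in control libraries, a difference of -1.06 percentage points (exact permutation p = 0.7). *ENO* held 75.6%, 77.6% and 75.9% of 9 unigenes in taurine libraries, against 72.2%, 78.6% and 76.7% in control libraries (exact permutation p = 0.9). Some of these 9 are annotated by KEGG as other enzymes, such as galactonate dehydratase.

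The share of *GAP* was smaller in every taurine library than in any control library, by little. For TRINITY_DN308_c0_g1 3 isoforms with FPKM are listed, and the one described here held 98.6%, 98.6% and 98.4% of their FPKM in taurine libraries, against 99.0%, 99.0% and 98.7% in control libraries. The rest was mostly isoform TRINITY_DN308_c0_g1_i6-C3A, with an FPKM of 114, 141 and 136 in taurine libraries, against 69.5, 195 and 126 in control libraries. Its share was 1.26%, 1.31% and 1.46% in taurine libraries, against 0.935%, 0.863% and 1.17% in control libraries. Of the 4 *GAP* unigenes together the main one held 97.7%, 97.4% and 97.1% in taurine libraries, against 98.2%, 98.2% and 97.7% in control libraries. *FBA* likewise held 99.36%, 99.36% and 99.40% of its 2 unigenes in taurine libraries, against 99.47%, 99.53% and 99.46% in control libraries.

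These 3 of the 7 shares compared did not overlap between the groups. An exact permutation test gave p = 0.1 for each, the smallest that 3 against 3 libraries allow, and 0.233 after Benjamini-Hochberg adjustment over the 7. The shares of *GAP* among its isoforms and among all its unigenes are not separate observations, since they rest on the same main unigene. How often such shares part between the groups for other unigenes was not tested. Without control replicate 2 the differences of the means were -0.31 (isoforms of *GAP*), -0.52 (all *GAP*) and -0.09 (*FBA*) percentage points. Isoforms of 1 assembled gene share sequence, and how the authors' tool divided reads among them can change shares of this size, which was not tested. For *FBA*, *ENO* and *ADH* no other isoform of the assembled gene is listed with FPKM.

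**Figure D5:**
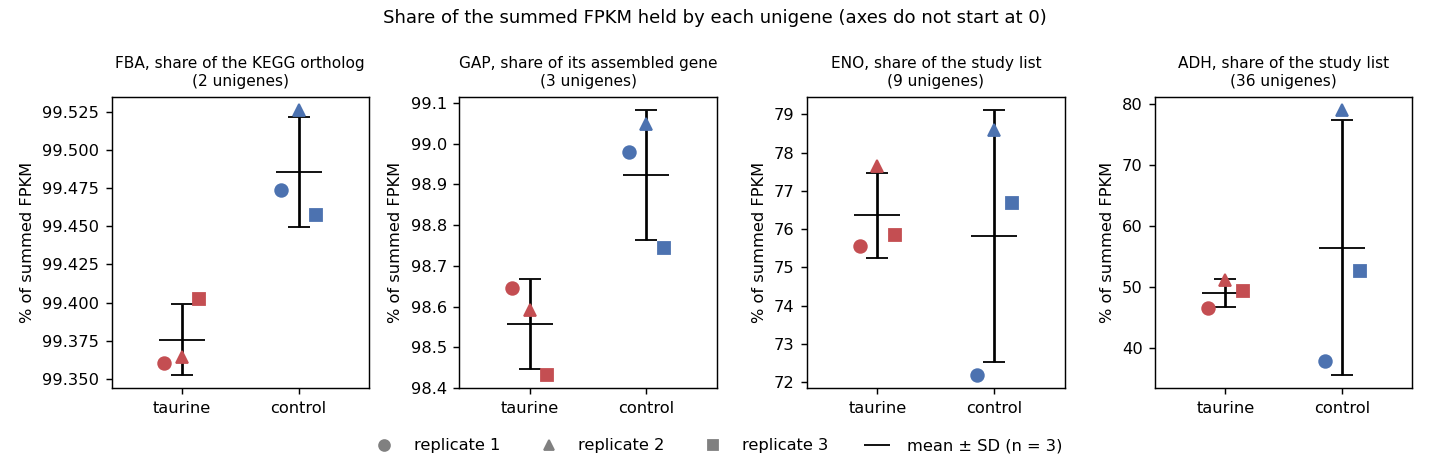
Share of the summed FPKM held by each unigene (%, axes not from 0), with taurine left and control right, points for libraries and bars for mean ± SD (n = 3 each). The taurine points of *FBA* and *GAP* lie below the control points by under 1 percentage point, and *ADH* spreads widely in the control, at 37.8% to 79.0%.

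Unigenes outside the study's list that resembled the 4 most were taken by Pearson's r of log2(FPKM + 1) over the 6 libraries, among 5643 of at least 500 bases whose mean FPKM reached 10. With 6 points and 1 library far from the rest, such values are a description. Between the 4 unigenes r was 0.976 to 0.995. Most like *FBA* was TRINITY_DN5016_c0_g1_i1-S1A, with a cerato-platanin domain found in secreted fungal proteins (r = 0.999), followed by the phosphoglycerate mutase TRINITY_DN517_c0_g1_i1-S3A (0.998) and the dynein light chain TRINITY_DN644_c0_g1_i3-S2A (0.995). The mutase, which acts just before enolase, had an FPKM of 565, 679.5 and 599.6 in taurine libraries, against 441, 1598 and 758 in control libraries.

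*GAP* was followed most closely by TRINITY_DN3743_c0_g2_i1-C2A, with a domain of unknown function (0.999), TRINITY_DN221_c0_g1_i1-C2A, with the zinc cluster domain of fungal transcription factors (0.998), and TRINITY_DN9961_c0_g1_i1-C2A (0.997). *ENO* was followed by TRINITY_DN4292_c0_g1_i1-C2A, annotated as a ribonucleotide reductase subunit (0.997), the stearoyl-CoA desaturase TRINITY_DN3668_c0_g1_i1-S1A (0.996) and TRINITY_DN436_c0_g1_i4-S3A (0.996). The desaturase, which puts double bonds into fatty acids, had an FPKM of 580.3, 654 and 589 in taurine libraries, against 481.5, 917 and 636 in control libraries. *ADH* was followed by a glycine dehydrogenase, TRINITY_DN1947_c0_g1_i1-C3A (0.998), TRINITY_DN42_c0_g1_i3-C2A, annotated as a protein phosphatase (0.998), and TRINITY_DN257_c0_g1_i1-C2A (0.997). Since r does not measure the size of a swing, these differed widely. Control replicate 2 over the median of the other 5 libraries was 1.27 for the glycine dehydrogenase, 5.65 for the phosphatase and 7.06 for TRINITY_DN257_c0_g1_i1-C2A, against 4.20 for *ADH*.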

How the data were processed

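RNA was extracted with TRIzol and sequenced on the DNBSEQ platform by the authors, who assembled the unigenes. The FPKM values were deposited by the authors in 1 table with annotation and were used as deposited. The submitters' processing notes name Bowtie2 2.2.5, RSEM 1.2.8 and DESeq, with no role given. The authors' own fold changes and p-values in that table were not used. Columns were assigned to groups by their library names, which match the sample titles, and every direction rests on these names. The deposited comparison columns follow the same names, whereas fold changes in the study's supplementary tables have the opposite sign for the same unigenes, which could not be settled here. The dose is from the study's methods.

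The 20380 unigenes whose mean FPKM reached 0.1 were tested on log2(FPKM + 1) with limma 3.58.1 in R 4.3.3 (lmFit, then eBayes with trend). Tests were two-sided, and p-values were adjusted by Benjamini-Hochberg over the whole table. A unigene was called at an adjusted p of at most 0.05. Single values were compared by exact permutation with scipy 1.17.1 in Python 3.11.15. The fit was also run on simulated data with planted changes. These had the same spread in every library and no outlying one, unlike the control here, so the run does not speak to such a case.

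Named were the 4 unigenes, the next of each enzyme, the isoforms, the main unigene of each step, actin and the 3 most alike unigenes. The members and lists were chosen with earlier results of these data known. The KEGG ortholog list, the counts by library order and the strata by mean FPKM were chosen after values were seen. For alcohol dehydrogenase the ortholog list was not complete, since it left out TRINITY_DN3439_c0_g1_i1-C2A and TRINITY_DN3489_c0_g1_i1-C3A. Alternatives were other pseudocounts, filters and scalings, sample weights, summed isoforms, a replicate block and leaving out each library. In fits without a library the filter was applied to the libraries kept. It was set so after the results of a first version, filtered on all 6 libraries, had been seen. That version kept 163 to 255 unigenes at 0 in all libraries left, and its counts are given with the alternatives. The table of gene names supplied matched 0 unigenes.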

Additional observations from a re-analysis of the deposited data

How the results depend on the processing

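Over 15 alternatives each of the 4 log2 fold changes was lower with taurine in 14 and higher in 1, without control replicate 2 (FBA 0.050, GAP 0.11, ENO 0.25, ADH 0.35), and none passed the test, with adjusted p-values of 0.71 or more from limma. Leaving out each library in turn gave -0.62 to 0.05 for FBA, -0.69 to 0.11 for GAP, -0.65 to 0.25 for ENO and -1.11 to 0.35 for ADH. The number of unigenes called by limma over the whole table was 8. It was 15 with sample quality weights, 0 with a pseudocount of 0.01 (515 at an unadjusted p under 0.05) and 0 with a replicate block (495 unadjusted), and 3 to 16 when each library was left out in turn, with 16 without control replicate 2, 13 without taurine replicate 2, 5 without control replicate 3 and 3 without taurine replicate 1. With the filter set on all 6 libraries, as first run, the fits without 1 library called 0 to 2 unigenes (557 to 905 unadjusted, limma), so the counts of 3 to 16 depend on a filter chosen after results were seen; the 4 unigenes were uncalled and had the same directions under both filters. The cause of these moves was not tested. Over 14589 unigenes same-numbered libraries did not deviate together (correlations of -0.037 to -0.0054). For each of the 4 unigenes replicate 2 was the highest library in both groups. The 4 follow each other closely (r = 0.976 to 0.995) and so are not 4 separate cases. How many of all tested unigenes had this order was not counted. The replicate block lowered the SE from 0.33 to 0.28 for FBA, 0.43 to 0.42 for GAP, 0.43 to 0.35 for ENO and 0.69 to 0.55 for ADH. It changed no call among the 4 unigenes, and the labels do not state whether same-numbered libraries were paired. With 3 libraries a group, spread between libraries and not depth limits these values.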
